A study of Mus musculus with 12 samples.

Results

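Inguinal white adipose tissue (iWAT) of WT mice was compared between cold exposure and thermoneutrality (TN), with 3 libraries in each group. These 6 libraries are 6 of the 12 in the series and were chosen by their labels alone. All mice were male C57BL/6 mice at 10 weeks of age. The TN WT mice were kept at 30 °C for 7 days, and the cold WT mice were kept between 4 and 6 °C for 3 days, so that both the temperature and the length of housing differed between the groups. WT denotes mice that carried loxP-flanked HIF2a (Epas1) alleles without Cre, and both groups carried them. The 6 other libraries came from HIF2a AKO mice, in which the same floxed alleles were combined with an Adipoq-Cre transgene expressed in adipocytes, at the same 2 temperatures with 3 libraries each. Whole tissue was sequenced, so that fewer cells of a type and less RNA per cell cannot be told apart. Reads counted on genes summed to between 24347776 and 35204631 per library in TN WT and between 23635703 and 29983577 in cold WT.

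At temperatures that mice must defend with heat production, sympathetic nerves release noradrenaline in fat. Beta-adrenergic receptors on adipocytes then raise cAMP, which activates protein kinase A, and this kinase drives lipolysis and the transcription of thermogenic genes. In iWAT, some adipocytes take on the beige state, in which they hold many lipid droplets, many mitochondria and UCP1, a carrier of the inner mitochondrial membrane that lets protons return without making ATP. At thermoneutrality this drive is low and iWAT resembles storage fat.

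Libraries within a group were not alike in their cell type markers. The summed level of 12 adipocyte markers, as CPM (read counts scaled to library size, with TMM factors), was 21492, 12156 and 24125 in TN WT replicates 1 to 3 and 38790.0, 25016 and 48767 in cold WT replicates 1 to 3. All cold libraries lay above all TN libraries (exact permutation test, two-sided, p = 0.1, the smallest that 3 against 3 can give), and TN WT replicate 2 was the lowest of the 6. As shares of all reads on genes, without scaling factors, the same markers overlapped, at 2.40, 1.46 and 2.58% at TN and 3.62, 2.48 and 4.04% in cold (exact permutation test, two-sided, p = 0.2). Of these 12 markers, 6 (50%) rose and 0 fell, against 15.6% and 5.68% of all tested genes. Their median log2 fold change was 1.04, and it lay between 0.79 and 1.47 with 1 WT library left out. Those that rose included Pnpla2 (2.09), Cidec (1.87), Slc2a4 (1.42) and Retn (1.27). Adipoq (0.43), Plin1 (0.73), Lep (0.96) and Lipe (0.91) were not called. Pnpla2 and Slc2a4 are also reported below with lipolysis and glucose uptake, so that these markers do not measure adipocyte content alone. TN WT replicate 3 held epithelial transcripts, with a sum of 379 CPM over 26 epithelial markers against 23.9 and 27.2 CPM in the other TN libraries and 28.6, 23.5 and 20.9 CPM in cold. Of the 15 of them that were tested, 1 fell, Epcam, and the median log2 fold change of -3.29 became 0.60 without this library. The keratin genes Krt8 and Krt18 were at 52.0 and 51.7 CPM in that library. The sum over 17 lymphocyte markers was 2811, 3418 and 2264 CPM at TN and 1993, 2103 and 1233 CPM in cold, without overlap between the groups. For 16 skeletal muscle markers the sum was 103, 145 and 96.1 CPM at TN and 65.7, 66.9 and 84.4 CPM in cold. These values did not overlap either. Of the muscle markers, 0 fell in the fit to all libraries and 9 fell in a fit to the WT libraries alone. The fit to all libraries includes TN replicate 2 and cold replicate 1 labelled HIF2a AKO, with muscle sums of 1868 and 1556 CPM. Their part in this difference was not tested. Macrophage and endothelial sums overlapped, at 3448, 3377 and 2013 CPM against 3280.3, 2766 and 1663 CPM for 17 macrophage markers and 1552, 1321 and 1603 CPM against 1678, 1579 and 1709 CPM for 17 endothelial markers. As unscaled shares of all reads on genes, the endothelial markers did not overlap and were lower in cold. These shares were 0.1731, 0.1583 and 0.1713% at TN and 0.1568, 0.1564 and 0.1417% in cold. The tissue label was met by adipocyte-defining transcripts, among them Adipoq, which encodes adiponectin, at 1429, 899 and 1719.7 CPM at TN and 1924, 1068 and 2467 CPM in cold, where the groups overlapped. The part of these marker differences in the responses described here was not tested.

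Epas1, the gene targeted in the series, lies on chromosome 17 from 86753700 to 86833410 of GRCm38 and carried loxP sites, without Cre, in both WT groups. Its level was 373, 278 and 430.0 CPM at TN and 576, 562 and 743 CPM in cold, and its log2 fold change was 0.80 (SE 0.20, adjusted p = 0.0178). Here and throughout, SE is the standard error, and p-values of single genes come from edgeR's quasi-likelihood fit, adjusted after Benjamini and Hochberg over 15306 genes. The call was lost without TN WT replicate 1 (0.83), TN WT replicate 2 (0.63) and cold WT replicate 3 (0.66). The cold libraries labelled HIF2a AKO held no less Epas1 (826 ± 139 CPM, SD, n = 3) than cold WT (627 ± 101 CPM, SD, n = 3), so that genotypes are given as labelled. A count over the whole gene includes exons outside a deleted part and cells other than adipocytes, and it does not check the deletion. The study's paper reports that Hif2a mRNA was lowered in adipose tissue of its knockout mice.

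Cold exposure moved a large part of the iWAT transcriptome. Of 15306 genes that passed the filter on low counts, 2389 (15.6%) were higher and 870 (5.68%) were lower in cold WT than in TN WT at an adjusted p under 0.05. Large changes were mostly rises. Among the called genes, 906 were at least 2-fold and 196 at least 4-fold higher in cold, whereas 102 were at least 2-fold and 14 at least 4-fold lower. The median log2 fold change of all tested genes was -0.034. The 3 cold and 3 TN values did not overlap in 6428 (42.0%) of the tested genes, so that a lack of overlap alone was common. The balance of higher and lower calls depended on the scaling, with 73.3% of calls higher under TMM scaling and 42.6% higher under upper quartile scaling, where the median of all genes was -0.17. The count of higher genes was 1149 without TN WT replicate 2, 1312 without cold WT replicate 3 and 1434 without TN WT replicate 1, and the count of lower genes was 232, 157 and 376 in the same order and 511 without cold WT replicate 1. No gene called with all libraries changed its direction in any of these fits that tested it.

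Genes of the thermogenic programme had the highest median of all lists examined. Of 26 tested genes on the thermogenic list, 21 (80.8%) rose and 0 fell, against 15.6% and 5.68% of all tested genes. The 5 others did not pass the test, and the median log2 fold change of the list was 2.69. Ucp1, on chromosome 8 from 83290352 to 83298452 of GRCm38, was at 0.204, 0.446 and 0.648 CPM at TN and 2238, 3506 and 2171 CPM in cold. The groups were far apart and did not overlap. The log2 fold change was 12.61 (SE 0.82, adjusted p = 2.78e-05). The TN values rest on 40 reads in the 3 libraries together, against 186056 in cold.

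Fabp3, which encodes a fatty acid binding protein of heart and brown fat, rose from 0.306, 0.514 and 0.137 CPM to 405, 580.4 and 308 CPM, a log2 fold change of 10.39 (SE 0.59, adjusted p = 1.99e-05). Elovl3, an elongase of very long chain fatty acids, was at 0.280, 0.0343 and 0.239 CPM at TN and 145, 107 and 288 CPM in cold, a log2 fold change of 9.83 (SE 0.67, adjusted p = 3.41e-05). These were, with Ucp1, the genes on the list with the largest rises, and each was near its detection limit at TN, where 3 reads correspond to between 0.0852 and 0.123 CPM before scaling. Dio2, the deiodinase that turns thyroxine into active T3 inside the cell, was at 1.09, 0.548 and 0.273 CPM at TN and at 209, 201 and 262 CPM in cold, with a log2 fold change of 8.38 (SE 0.51, adjusted p = 1.99e-05). Slc27a2, an acyl-CoA synthetase and fatty acid transporter, stood at 0.484, 0.171 and 0.375 CPM and 46.2, 45.4 and 47.4 CPM, and its 3 cold values were nearly equal. Its log2 fold change was 7.01 (SE 0.49, adjusted p = 3.60e-05).

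A second set of thermogenic genes was already measurable at TN. Gyk, the glycerol kinase that lets adipocytes re-esterify glycerol, was at 8.58, 8.40 and 9.42 CPM at TN and 182, 288 and 205 CPM in cold, and its log2 fold change of 4.68 (SE 0.27) had the smallest standard error among these genes. Cidea, a lipid droplet protein of brown and beige cells, had 33.4, 7.37 and 38.2 CPM at TN and 511, 750.1 and 583 CPM in cold, a log2 fold change of 4.54 (SE 0.55, adjusted p = 7.06e-04). Plin5, which coats droplets at mitochondria, had 9.60, 2.84 and 10.8 CPM and 84.8, 114 and 115 CPM, a log2 fold change of 3.75 (SE 0.47, adjusted p = 8.71e-04). In both genes TN WT replicate 2, the library with the lowest adipocyte marker sum, was the lowest TN library. The coactivator gene Ppargc1a, whose product drives mitochondrial biogenesis, rose by 2.56 (SE 0.34), Cpt1b, which encodes the muscle-type carnitine palmitoyltransferase, by 2.38 (SE 0.32) and S100b, a secreted factor linked to sympathetic nerve growth in fat, by 1.97 (SE 0.31) on the log2 scale. These rises and those of Ucp1, Fabp3, Elovl3, Dio2, Slc27a2, Gyk, Cidea and Plin5 were called in every fit that left out 1 of the 6 WT libraries. With 1 library left out, the median of the list lay between 2.63 and 2.94, and between 18 and 22 members were called higher. S100b is also a marker of Schwann cells. Of 15 tested nerve and Schwann cell markers, it alone rose, Ddc fell (-1.31) and the median log2 fold change was -0.26.

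Genes that specify the beige lineage were mostly not called. Prdm16, a determinant of brown and beige fate, was at 16.3, 10.9 and 20.3 CPM at TN and 23.5, 30.2 and 28.4 CPM in cold. The groups did not overlap, which held for 42.0% of all tested genes. The log2 fold change of Prdm16, 0.79 (SE 0.26, adjusted p = 0.0519), did not pass the limit with all libraries. It passed without TN WT replicate 3 (adjusted p = 0.0278). Ebf2, Zfp516 and Cited1, which also mark or specify beige cells, had log2 fold changes of 0.23, 0.13 and -0.74 and were not called. Of 14 markers used to tell classical brown, beige and white fat apart, 4 (28.6%) rose and 0 fell, against 15.6% and 5.68% of all tested genes. The 4 were Pdk4 (3.67), P2rx5 (2.11), Slc36a2 (1.41) and Hoxc10 (0.89). Without cold WT replicate 3, 2 of the 14 were called, with Slc36a2 at 1.19 and Hoxc10 at 0.77, and Hoxc10 was also lost without TN WT replicate 1 (0.91) or TN WT replicate 2 (0.68). The beige markers Tmem26, Tnfrsf9 and Tbx1 had values of -0.53, -0.37 and 0.20, and the white fat marker Hoxc9 0.18, none of them called.

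**Figure D1:**
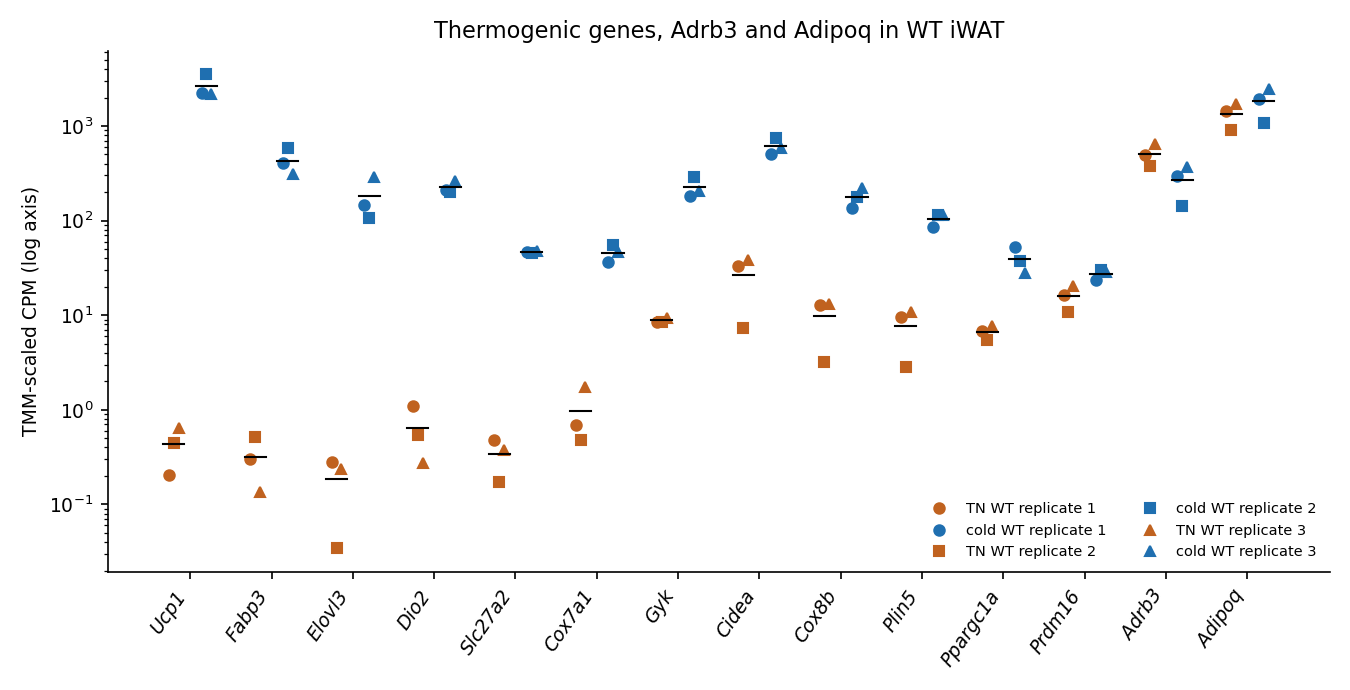
CPM after TMM scaling, on a log axis, of 14 genes in the 3 TN WT (orange) and 3 cold WT (blue) libraries, with 1 symbol for each replicate number and a black line at the group mean. Ucp1 lies between 0.204 and 0.648 CPM at TN and between 2171 and 3506 CPM in cold, whereas the groups overlap for Adipoq.

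Among 33 transcription regulators of adipocytes and mitochondria, 12 (36.4%) rose and 2 (6.06%) fell, against 15.6% and 5.68% of all tested genes (median log2 fold change 0.29). The largest rise was that of Ppara, the fatty acid-sensing receptor that drives genes of fat oxidation, from 12.7, 6.82 and 12.4 CPM at TN to 108, 116 and 96.9 CPM in cold, a log2 fold change of 3.33 (SE 0.48, adjusted p = 0.00144). All 3 estrogen-related receptors, orphan receptors that act with PGC-1 coactivators on mitochondrial genes, rose. Esrra was at 41.3, 34.1 and 49.7 CPM at TN and 121, 138 and 122 CPM in cold (log2 fold change 1.61, SE 0.19), Esrrg at 2.39, 2.54 and 2.66 CPM and 12.5, 14.95 and 11.9 CPM (log2 fold change 2.37, SE 0.28), and Esrrb had a log2 fold change of 2.15. The groups did not overlap in Esrra or Esrrg. Ppargc1b, the paralog of Ppargc1a, rose by 2.04 (SE 0.24), Rxrg by 1.16 (SE 0.23), Cebpb by 1.81 (SE 0.30) and Pparg, the receptor required for adipocyte differentiation, by 1.13 (SE 0.34). The call for Pparg was lost without TN WT replicate 1 (1.11), TN WT replicate 2 (0.96), cold WT replicate 2 (1.19) and cold WT replicate 3 (0.92). Tfam, Nrf1 and Gabpa, which act on mitochondrial DNA or on nuclear genes of respiration, had log2 fold changes of 0.31, -0.18 and 0.29 and were not called. The 2 that fell were Sirt1 (-0.43, SE 0.12, adjusted p = 0.0267) and Cebpd (-0.63, SE 0.20, adjusted p = 0.0464), and both calls were lost in fits without 1 library. Those fits gave Sirt1 values of -0.39, -0.45 and -0.41 when TN WT replicate 2, cold WT replicate 1 or cold WT replicate 3, in this order, was left out. Cebpd was called only without cold WT replicate 1 and otherwise lay between -0.64 and -0.41.

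Receptors, enzymes and effectors that carry the adrenergic signal gave calls in both directions. Of 43 tested genes, 16 (37.2%) rose and 2 (4.65%) fell, against 15.6% and 5.68% of all tested genes, with a median log2 fold change of 0.33. Adrb3, the main beta-adrenergic receptor of mouse adipocytes, was at 490.0, 377 and 650.0 CPM at TN and 299, 142 and 373 CPM in cold. The 3 cold libraries were below the 3 TN libraries, the nearest pair being 373 and 377 CPM, and the log2 fold change of -0.90 (SE 0.43, adjusted p = 0.145) was not called. Adrb1 had 2.88, 1.85 and 3.34 CPM at TN and 3.85, 10.0 and 4.83 CPM in cold and rose by 1.21 (SE 0.35, adjusted p = 0.0325) on the log2 scale, a call lost without TN WT replicate 1 (1.26), TN WT replicate 2 (0.99) and cold WT replicate 2 (0.66).

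Downstream of the receptors, Adcy3, which makes cAMP, rose from 37.4, 33.2 and 35.0 CPM to 159.7, 171 and 223 CPM, a log2 fold change of 2.39 (SE 0.20, adjusted p = 1.25e-04). Gnas, which encodes the stimulatory G protein, rose by 1.03 (SE 0.18). Of the protein kinase A genes, the catalytic subunit Prkaca rose by 1.20 (SE 0.26) and the regulatory subunit Prkar2b by 1.78 (SE 0.35), while Prkacb (-0.15) and Prkar1a (0.19) were not called. Prkar2b had 317, 163 and 374 CPM at TN and 733, 986 and 1206 CPM in cold, so that the lowest cold library was 733 CPM and the highest TN library 374 CPM. Pde4d, a phosphodiesterase that breaks down cAMP, also rose, by 1.46 (SE 0.19). The genes that fell were Creb1, the cAMP-responsive transcription factor, which fell by 0.50 (SE 0.10, adjusted p = 0.00582), and Rapgef4, a cAMP-binding exchange factor, which fell by 0.54 (SE 0.17, adjusted p = 0.0423) on the log2 scale. The call for Rapgef4 was lost in 5 of the 6 fits without 1 library, where its value lay between -0.62 and -0.40.

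Nuclear genes of the respiratory chain rose nearly throughout. Of 81 tested genes for complexes I to IV and the ATP synthase, 76 rose and 0 fell, against 15.6% and 5.68% of all tested genes. The median log2 fold change of the 81 genes was 1.40. Their summed share of all reads counted on genes, without scaling factors, was 1.08, 0.863 and 1.27% at TN and 2.38, 2.50 and 2.67% in cold (exact permutation test, two-sided, p = 0.1, the smallest possible). All 36 tested genes of complex I, which takes electrons from NADH, rose, with log2 fold changes between 0.82 (Ndufa7) and 1.84 (Ndufb6), and the call for Ndufa7 was lost without cold WT replicate 3 (0.70). Ndufs8, a subunit with iron-sulphur clusters, was at 67.9, 59.2 and 75.0 CPM at TN and 191, 173 and 197 CPM in cold (log2 fold change 1.47, SE 0.17). All 14 genes of complexes II and III and of cytochrome c rose, with a median of 1.78. Uqcrc1, a core protein of complex III, went from 227, 181 and 268 CPM to 742, 753 and 935 CPM (log2 fold change 1.84, SE 0.21). Of 16 ATP synthase genes, 14 rose, with a median of 1.27, and the 2 others were Atp5g1 (0.36) and Atpif1 (-0.21), which encodes the inhibitor of the enzyme. Atp5b, the catalytic beta subunit, was at 1192, 869 and 1481 CPM at TN and 3476, 3354 and 4629 CPM in cold. Ndufs5 was listed with almost no reads and was not tested. Genes encoded by mitochondrial DNA were not analysed here.

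Complex IV showed the widest range within the chain, and its list holds tissue-specific isoforms. Of 15 genes, 12 rose, and Cox6a2, Cox4i2 and Cox6b2 were not called (-0.34, -0.075 and 0.82). Cox7a1, the isoform of heart, muscle and brown fat, lies on chromosome 7 from 30184144 to 30186078. It had 0.688, 0.480 and 1.74 CPM at TN and 36.2, 55.3 and 46.1 CPM in cold, a log2 fold change of 5.58 (SE 0.58, adjusted p = 4.48e-04). Its ubiquitous counterpart Cox7a2 was at 67.3, 49.5 and 90.2 CPM and 168, 157 and 193 CPM, a log2 fold change of 1.32 (SE 0.22). Per kilobase of exon, Cox7a1 made up 1.77, 1.68 and 3.29% of the sum of both isoforms at TN and 27.6, 38.3 and 29.6% in cold, so that Cox7a2 was the higher of the 2 in all 6 libraries. The same held for Cox8b, again the isoform of brown fat and muscle, which rose by 4.18 (SE 0.48) and made up 8.80, 3.54 and 7.32% of the sum with Cox8a at TN and 32.3, 40.4 and 37.7% in cold, per kilobase of exon. The median over complex IV was 1.52.

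Since members of these lists moved together, promoters were searched for 3 motifs, in RefSeq promoters of GRCm38.p6 that span 250 bases before to 50 bases after each start and that matched 11237 of the 15306 tested genes. The full cAMP response element, TGACGTCA, reads the same on both strands. It was present in 3.27% of the matched promoters of tested genes, 3.95% of those of genes that rose and 3.39% of those of genes that fell. Windows of 28 bases are shown for 3 genes that rose and 1 that was not called, each 5′ to 3′ on the strand of its gene, with the element in capitals.
Dio2 (minus strand, chr12:90739116-90739143): tctttctcaaTGACGTCAagatctttag
Cycs (minus strand, chr6:50566721-50566748): ggccagagggTGACGTCAcgcacgtcca
Uqcrfs1 (minus strand, chr13:30545328-30545355): ggcgtcgcgcTGACGTCAcaaaccctgc
Prkar1a (plus strand, chr11:109650890-109650917): cgaggcgcatTGACGTCAgcagccgaac
The elements lie 87, 161, 21 and 41 bases before the RefSeq start, in this order. The genes are Dio2 (log2 fold change 8.38), Cycs, which encodes cytochrome c (2.28), Uqcrfs1, the Rieske protein of complex III (2.01), and Prkar1a (0.19), so that the same letters stood before genes with very different values. The extended response element of estrogen-related receptors, TCAAGGTCA on either strand, was found in 0.303% of promoters of tested genes, 0.603% for genes that rose (11 of 1823) and 0.161% for genes that fell (1 of 620). The palindromic NRF1 element was found in 2.13% of promoters of tested genes, 3.46% for genes that rose (63 of 1823) and 2.90% for genes that fell (18 of 620). None of the 3 motifs contains another. A match is a stretch of letters, and binding was not measured.

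Enzymes that feed the respiratory chain rose with it. All 18 tested genes of the tricarboxylic acid (TCA) cycle rose, against 15.6% of all tested genes, with a median log2 fold change of 1.71. Idh3a, the catalytic subunit of the NAD-dependent isocitrate dehydrogenase, went from 143, 91.6 and 203 CPM at TN to 754, 893 and 952 CPM in cold, a log2 fold change of 2.57 (SE 0.37, adjusted p = 0.0016). Cs, citrate synthase, rose by 1.70 (SE 0.29) on the log2 scale. Idh2, which makes NADPH, had the smallest rise, 0.55, and was called with all libraries but, of the fits that left out 1, only without TN WT replicate 3. The others gave values between 0.44 and 0.58. Of 25 genes of mitochondrial and peroxisomal fatty acid oxidation, 24 (96%) rose, with a median of 2.03. Slc25a20, which carries acylcarnitines into mitochondria, had 49.7, 27.5 and 46.3 CPM at TN and 261, 325 and 413 CPM in cold (log2 fold change 3.02, SE 0.28), and Acadvl, the dehydrogenase of very long chain acyl-CoA, had 171, 108 and 209 CPM and 747, 824 and 987 CPM (log2 fold change 2.39, SE 0.29). The exception was Cpt1a, the liver-type entry enzyme, at 105, 100.5 and 77.7 CPM and 126, 133 and 89.7 CPM, with overlap between the groups and a log2 fold change of 0.30 (SE 0.23, adjusted p = 0.349). Per kilobase of exon, Cpt1b made up 0.766, 1.07 and 0.887% of the sum with Cpt1a at TN and 4.23, 3.72 and 3.15% in cold, without overlap, so that Cpt1a was the higher of the 2 in all 6 libraries.

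Of 77 genes of the mitochondrial ribosome, 69 (89.6%) rose and 0 fell, against 15.6% and 5.68% of all tested genes. The median log2 fold change of the list was 0.75, lower than the medians of the respiratory chain lists. Mrps2 went from 27.6, 26.3 and 30.3 CPM to 62.5, 67.2 and 97.0 CPM (log2 fold change 1.43, SE 0.18). The largest value on that list belonged to Mrps36 (1.74), a gene picked after its value was seen, whose product is also described as a subunit of the oxoglutarate dehydrogenase complex. Of 34 mitochondrial carriers and genes of mitochondrial shape and turnover, 22 (64.7%) rose and 0 fell. Slc25a34, a carrier whose substrate is not settled, had 2.52, 0.754 and 1.47 CPM at TN and 60.2, 74.0 and 88.8 CPM in cold, a log2 fold change of 5.51 (SE 0.47, adjusted p = 1.39e-04). Chchd10, a protein of the mitochondrial cristae, rose by 2.86 (SE 0.28), Mpc1, a subunit of the pyruvate carrier, by 1.97 (SE 0.37), and the fusion gene Mfn2 by 1.22 (SE 0.22). The fission genes Dnm1l and Fis1 (0.21 and 0.20) and the mitophagy genes Bnip3 and Bnip3l (0.20 and 0.41) were not called. Peroxisomal genes rose in 22 of 35 cases (62.9%) and fell in 1 (2.86%). Abcd3, a transporter of the peroxisomal membrane, was at 85.7, 55.8 and 97.5 CPM and 269, 349 and 508 CPM (log2 fold change 2.23, SE 0.31). The gene that fell was Far1, a reductase of ether lipid synthesis, which fell by 0.58 (SE 0.13, adjusted p = 0.0107) on the log2 scale.

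Genes of triglyceride breakdown and of triglyceride synthesis rose side by side. On the list of lipolysis and fatty acid uptake, 23 of 30 genes (76.7%) rose and 0 fell (median log2 fold change 1.41). Of all tested genes, 15.6% rose and 5.68% fell. Pnpla2, which encodes adipose triglyceride lipase, was at 1092, 629.8 and 1475 CPM at TN and 4161, 3054 and 6405 CPM in cold, a log2 fold change of 2.09 (SE 0.34, adjusted p = 0.00256). Lipe, hormone-sensitive lipase, was at 681, 369 and 855 CPM and 1207, 959 and 1421 CPM without overlap, and its log2 fold change of 0.91 had an adjusted p of 0.0501, just outside the limit. It passed without TN WT replicate 3 (adjusted p = 0.0239) or cold WT replicate 2 (adjusted p = 0.0479). Lpl, which frees fatty acids from circulating lipoproteins, rose by 1.37 (SE 0.36) and Vldlr, a lipoprotein receptor, by 1.61 (SE 0.25). Angptl4, an inhibitor of Lpl, had a value of -0.48 (SE 0.49, adjusted p = 0.484). On the list of triglyceride synthesis and lipid droplets, 19 of 27 genes (70.4%) rose and 0 fell (median 1.65). Dgat1, an enzyme of the last step, rose by 1.65 (SE 0.25), Lpin1 by 1.88 (SE 0.36) and Gpd2, the mitochondrial glycerol-3-phosphate dehydrogenase, by 1.95 (SE 0.36). Plin1, the droplet coat of white adipocytes, and Pck1, the enzyme of glyceroneogenesis, were not called (0.73 and 0.63).

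De novo lipogenesis was less separated between the groups. Of 23 genes, 6 (26.1%, against 15.6% of all tested genes) rose and 0 fell, although the median log2 fold change was 1.01. Fasn, fatty acid synthase, had 12502, 4364 and 15936 CPM at TN and 19112, 14166 and 31799.9 CPM in cold, where TN WT replicate 3 lay above cold WT replicate 2 and the log2 fold change was 0.99 (SE 0.60, adjusted p = 0.238). Scd1 (0.71), Acly (0.85) and Acaca (0.46) were not called. In each of these 4 genes TN WT replicate 2 was the lowest library and cold WT replicate 3 the highest, the same libraries that held the lowest and highest sums of adipocyte markers. Acacb, the mitochondrial acetyl-CoA carboxylase whose product holds back Cpt1, rose by 2.58 (SE 0.44, adjusted p = 0.00298). Thrsp, Srebf1 and G6pdx rose by 2.11, 1.15 and 1.49. The count of called members was 1 without TN WT replicate 1, 1 without TN WT replicate 2 and 1 without cold WT replicate 3. Of 23 genes of cholesterol synthesis, 6 (26.1%) rose, among them Hmgcs1 (1.73), and 1 fell, the regulator Srebf2 (-0.39). The 6 rises became 1 without TN WT replicate 1, 0 without TN WT replicate 2 and 1 without cold WT replicate 3. Without TN WT replicate 1, TN WT replicate 2 or cold WT replicate 3, in this order, the calls were also lost for Lpl (1.37, 1.10 and 0.98), Thrsp (2.15, 1.68 and 1.66), Srebf1 (1.16, 0.89 and 0.99), G6pdx (1.52, 1.26 and 0.97), Hmgcs1 (1.90, 1.39 and 1.42) and Srebf2 (-0.44, -0.31 and -0.34). Those for Thrsp (2.24) and Srebf2 (-0.35) were lost without cold WT replicate 1 as well.

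Of 40 genes of glucose uptake, glycolysis, glycogen and pyruvate handling, 25 (62.5%) rose and 1 (2.5%) fell, against 15.6% and 5.68% of all tested genes. The median log2 fold change of the list was 1.23. The count of rises was 16 without TN WT replicate 2. Pdk4, which switches pyruvate dehydrogenase off, rose most, from 62.4, 18.8 and 67.6 CPM to 588, 436 and 868 CPM (log2 fold change 3.67, SE 0.50, adjusted p = 0.0011), and Pdp2, a phosphatase that switches it on, rose by 1.84 (SE 0.19). Hk2, the insulin-responsive hexokinase, rose by 2.26 (SE 0.42) and Pgk1 by 1.60 (SE 0.18). Slc2a4, the insulin-responsive glucose transporter, rose by 1.42 (SE 0.45, adjusted p = 0.0458), a call lost without TN WT replicate 1 (1.40), TN WT replicate 2 (1.08), cold WT replicate 1 (1.47) and cold WT replicate 3 (1.16), and Slc2a1, the basal transporter, was at 41.8, 40.5 and 41.2 CPM and 40.9, 34.7 and 27.0 CPM and was not called. Ldhb rose by 2.75 (SE 0.33) and its share of the sum with Ldha, per kilobase of exon, was 10.5, 10.9 and 10.2% at TN and 30.0, 31.6 and 28.2% in cold. The gene that fell was Aldoc, with 2.37, 3.26 and 7.20 CPM at TN and 1.66, 1.58 and 0.804 CPM in cold (log2 fold change -1.66, SE 0.45, adjusted p = 0.0253), which was highest in TN WT replicate 3, and the call was lost without TN WT replicate 3 (-1.06) and cold WT replicate 3 (-1.39). Eno1 was listed with almost no reads and was not tested.

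Breakdown of branched-chain amino acids, a mitochondrial pathway that brown fat uses for fuel, was higher in 16 of 21 genes (76.2%, against 15.6% of all tested genes). The median log2 fold change of the list was 1.05. The count was 10 without TN WT replicate 1, 8 without TN WT replicate 2 and 8 without cold WT replicate 3. Bckdha, a subunit of the branched-chain ketoacid dehydrogenase, had 167, 105 and 174 CPM at TN and 358, 244 and 489 CPM in cold (log2 fold change 1.29, SE 0.26). Genes proposed for heat production without UCP1 were called in part. Of 16 genes, 4 (25.0%) rose, against 15.6% of all tested genes, and 0 fell. The 4 were Ckb, Atp2a2, Alpl (0.83) and the creatine transporter Slc6a8 (0.56). The count of rises was 2 without TN WT replicate 1, 2 without TN WT replicate 2 and 2 without cold WT replicate 2. The count of falls depended on the libraries fitted. It was 1 without TN WT replicate 3 and 2 with edgeR on the WT libraries alone. Among those 2 was Ckm, the muscle creatine kinase gene (-4.28, adjusted p = 0.0362), which was not called with all libraries (-4.27). The reason for this difference was not tested. Calls were lost for Alpl without TN WT replicate 1 (0.74), TN WT replicate 2 (0.67), cold WT replicate 2 (0.74) and cold WT replicate 3 (0.79), and for Slc6a8 without TN WT replicate 1 (0.51), TN WT replicate 2 (0.50), cold WT replicate 1 (0.64) and cold WT replicate 2 (0.28). Ckb, the creatine kinase used in the creatine cycle, rose from 53.0, 51.2 and 45.4 CPM to 183, 186 and 124 CPM (log2 fold change 1.72, SE 0.23, adjusted p = 0.00104), and Atp2a2, the calcium pump SERCA2, from 201, 206 and 216 CPM to 359, 386 and 469.9 CPM (log2 fold change 0.96, SE 0.13, adjusted p = 0.00115). Gatm, which makes the creatine precursor, was not called (-0.038, SE 0.12), nor was the calcium release channel Ryr2 (-0.66, SE 0.29). Ucp3, a relative of UCP1 found in muscle and brown fat, had 29.8, 9.87 and 41.3 CPM at TN and 136, 196 and 199 CPM in cold, a log2 fold change of 2.71 (SE 0.48, adjusted p = 0.00389), and Ucp2 was not called (-0.12). Per kilobase of exon, Ucp1 made up 1.29, 7.96 and 2.92% of the sum with Ucp3 at TN and 96.9, 97.2 and 95.4% in cold. Of 24 antioxidant genes, Ucp2 and Ucp3 included, 16 (66.7%) rose, against 15.6% of all tested genes. Among them was Sod2, the mitochondrial superoxide dismutase (1.91, SE 0.31). The count was 9 without TN WT replicate 1, 8 without TN WT replicate 2 and 8 without cold WT replicate 3.

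Of 29 hypoxia-related genes, 6 (20.7%) rose, against 15.6% of all tested genes, and 1 fell, the histone demethylase gene Kdm3a (-0.34), and the median log2 fold change was 0.11, or -0.026 under upper quartile scaling. The count of rises was 3 without TN WT replicate 2. The call for Kdm3a was lost without TN WT replicate 1 (-0.33), TN WT replicate 2 (-0.33) and cold WT replicate 3 (-0.26), which left 0 falls, and that for Epas1 in the same fits. Beside Epas1, those that rose included Egln3, a prolyl hydroxylase that marks HIF proteins for decay (1.32, SE 0.26), Egln2 (0.52, SE 0.10) and Vegfa, the angiogenic factor, at 252, 202 and 268 CPM at TN and 392, 437 and 471 CPM in cold (log2 fold change 0.85, SE 0.17, adjusted p = 0.0071). Hif1a was at 116, 116 and 92.1 CPM and 108, 145 and 149 CPM with overlap and was not called.

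Of 32 adipokines and factors secreted by brown fat, 9 (28.1%) rose and 0 fell, against 15.6% and 5.68% of all tested genes. Bmp8b and Fgf21, both factors of active brown fat, were near the detection limit at TN, with 4 and 8 reads over the 3 libraries, and had 2.55, 2.18 and 0.443 CPM and 2.10, 1.37 and 0.684 CPM in cold. Nrg4, a factor that acts on liver and nerve, was at 34.4, 16.4 and 37.5 CPM and 86.1, 80.1 and 142 CPM (log2 fold change 1.80, SE 0.34), and Lep, which encodes leptin, was not called (0.96, SE 0.67). Among 29 genes of protein folding stress and cold shock, 9 (31.0%) rose, again against 15.6%, led by Asns (1.95, SE 0.32) and the mitochondrial chaperone Hspa9 (1.70, SE 0.24), whereas the endoplasmic reticulum chaperone Hspa5 was not called (0.12, SE 0.13). Cirbp, the cold-inducible RNA-binding protein, fell by 0.35 (SE 0.11, adjusted p = 0.0463) on the log2 scale, and its call was lost on leaving out any 1 of the 6 libraries (between -0.42 and -0.30). Of 19 clock genes, 5 (26.3%, against 15.6% of all) rose, which were Per2 (1.18), Dbp (1.18), the output regulators Tef (1.49, SE 0.18), Hlf (2.18, SE 0.35) and the period gene Per3 (1.30, SE 0.18), while Arntl, the positive arm, stood at 37.0, 35.8 and 39.5 CPM and 35.7, 29.3 and 43.8 CPM. Dbp was called only without cold WT replicate 1 among the fits that left out 1 library, and its other values lay between 0.84 and 1.27. The time of day at which tissue was taken is not given in the sources used here.

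**Figure D2:**
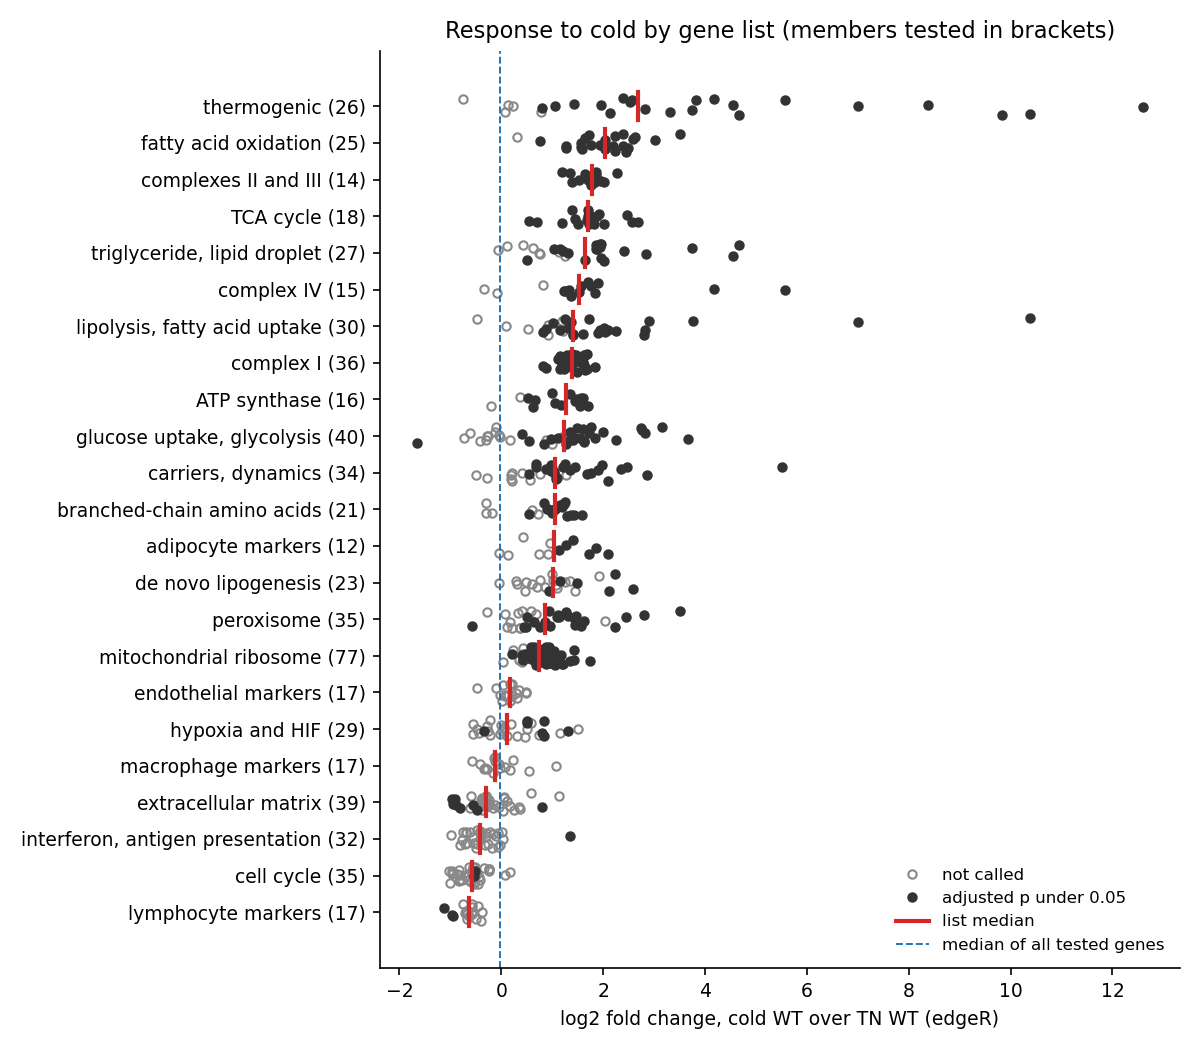
Log2 fold change of cold WT over TN WT for each tested member of 23 lists, with called genes filled, members that did not pass open, the median of each list in red and the median of all tested genes as a dashed line at -0.034. The medians run from -0.64 for lymphocyte markers to 2.69 for thermogenic genes, and the respiratory chain lists lie between 1.27 and 1.78.

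Genes of the extracellular matrix had lower levels in cold for the main fibrillar collagens. Of 39 tested genes, 7 (17.9%) fell and 1 (2.56%) rose, against 5.68% and 15.6% of all tested genes, and the median log2 fold change was -0.30. The count of falls was 3 without TN WT replicate 1, 3 without TN WT replicate 2, 11 without TN WT replicate 3 and 4 without cold WT replicate 3. Col3a1, a chain of fibrillar collagen III, was at 3176, 3175 and 3017 CPM at TN and 1264, 1896 and 1714 CPM in cold, a log2 fold change of -0.94 (SE 0.20, adjusted p = 0.00882). Col1a1 was at 1408, 1411 and 1277 CPM and 502, 816 and 787 CPM (log2 fold change -0.96, SE 0.24, adjusted p = 0.017). The TN libraries of both genes lay close together and above all cold libraries. Col16a1 fell by 0.88 (SE 0.16) and Col1a2 fell by 0.80 (SE 0.22) on the log2 scale. Reads on Col1a1, Col1a2 and Col3a1 together made up 0.689, 0.744 and 0.600% of all reads on genes at TN and 0.227, 0.368 and 0.285% in cold, without scaling factors. The gene that rose was Loxl1, an enzyme that crosslinks elastin (0.79, SE 0.16, adjusted p = 0.00792). Basement membrane chains Col4a1 and Col4a2 were not called (0.026 and 0.34). Of 17 progenitor and mural cell markers, 1 rose, the tissue factor gene F3 (1.52), and 1 fell, Dlk1 (-0.91). The summed level of the markers was 1741, 1640.3 and 1600.0 CPM at TN and 1736, 1591 and 1525 CPM in cold, with overlap. As shares of all reads on genes, without scaling factors, the same markers did not overlap. They made up 0.1941, 0.1966 and 0.1709% at TN and 0.1622, 0.1575 and 0.1264% in cold. The call for F3 was lost without TN WT replicate 2 (1.40), where 0 of these markers rose, and Dlk1 was called only without cold WT replicate 1, with values between -1.07 and -0.64 in the 5 other fits. The call for Col1a1 was lost without TN WT replicate 1 (-0.94) and TN WT replicate 2 (-0.95), and that for Col1a2 without TN WT replicate 1 (-0.76), TN WT replicate 2 (-0.77), cold WT replicate 1 (-0.64) and cold WT replicate 3 (-0.86).

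Lymphocyte markers had lower fitted levels in cold. Of 17 tested, 3 (17.6%, against 5.68% of all tested genes) fell and 0 rose, all 17 had a negative value, and the median log2 fold change was -0.64. The 3 were genes of B cells. Cr2, complement receptor 2, had 127, 199.9 and 126 CPM at TN and 68.5, 84.6 and 54.3 CPM in cold (log2 fold change -1.12, SE 0.25, adjusted p = 0.0112), Fcer2a had 236, 268 and 189.5 CPM and 114, 156 and 83.0 CPM (log2 fold change -0.97, SE 0.23, adjusted p = 0.0151), and Ms4a1, which encodes CD20, had 138, 219.8 and 116 CPM and 90.5, 96.3 and 58.9 CPM (log2 fold change -0.95, SE 0.30, adjusted p = 0.0437). The T cell gene Cd3e was at 55.6, 59.0 and 61.5 CPM and 35.6, 44.9 and 32.7 CPM without overlap and did not pass (-0.64, SE 0.23, adjusted p = 0.0724). The 3 falls became 1 without TN WT replicate 2 and 0 without cold WT replicate 3, and calls were lost for Cr2 without cold WT replicate 3 (-0.98), for Fcer2a without TN WT replicate 2 (-0.87) and cold WT replicate 3 (-0.77), and for Ms4a1 without TN WT replicate 1 (-1.04), TN WT replicate 2 (-0.65), cold WT replicate 1 (-1.03) and cold WT replicate 3 (-0.76). The inguinal fat pad holds a lymph node, and whether it was removed is not given in the sources used here. Of 17 macrophage and 17 endothelial markers, 0 were called in either direction with edgeR or DESeq2 on all libraries, and 1 endothelial marker (Flt1) had an unadjusted p under 0.05 with edgeR. Endothelial rises numbered 2 without TN WT replicate 3 and 1 without cold WT replicate 1. For macrophage markers, 1 rose without cold WT replicate 3. The markers of dendritic cells, granulocytes, mast cells and innate lymphocytes gave 3 falls of 17, in Klrb1c (-0.97), Ncr1 (-0.81) and Il1rl1 (-0.55). These falls numbered 1 without TN WT replicate 1, 1 without TN WT replicate 2, 6 without TN WT replicate 3 and 0 without cold WT replicate 3. Over the 6 fits without 1 library, the values of Klrb1c, Ncr1 and Il1rl1, in this order, ran from -1.16 to -0.80, -0.98 to -0.66 and -0.66 to -0.45. Interferon and antigen presentation genes gave 0 falls and 1 rise of 32, that of Ifi27l1 (1.34), with a median of -0.41. DESeq2 called 9 falls there, and 10 members had an unadjusted p under 0.05 with edgeR and a negative value. The count of falls with edgeR was 5 without TN WT replicate 3 and 1 without cold WT replicate 1. Cell cycle genes gave 2 falls of 35 (5.71%, near the 5.68% of all tested genes), in Mcm4 (-0.54) and Ccnd1 (-0.51), with a median of -0.58, which was -0.20 without TN WT replicate 2, and the counts of falls were 0 without TN WT replicate 1, 0 without TN WT replicate 2, 11 without TN WT replicate 3, 0 with cold WT replicate 1 left out and 0 with cold WT replicate 3 left out. Over the fits that left out 1 library, values ran from -0.67 to -0.35 for Mcm4 and from -0.63 to -0.40 for Ccnd1. Mki67, a marker of dividing cells, stood at 71.9, 164 and 38.4 CPM at TN and 36.6, 63.0 and 39.9 CPM in cold.

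Among single genes, the largest falls with at least 50 reads on average and no overlap included Gbp11, an interferon-induced GTPase gene on chromosome 5 from 105323042 to 105346472, with 29.1, 22.3 and 15.5 CPM at TN and 3.85, 2.73 and 4.26 CPM in cold. Its log2 fold change was -2.62 (SE 0.41, adjusted p = 0.00228), and it was called in every fit without 1 library. Gbp11 belongs to a cluster of similar genes, among which reads can be split. Sult1e1, the estrogen sulphotransferase, had 10.3, 4.70 and 9.96 CPM and 2.33, 1.37 and 0.764 CPM, a log2 fold change of -2.49 (SE 0.79, adjusted p = 0.0458), a call lost on leaving out any 1 of the 6 libraries (between -2.96 and -2.17). Igfbp2, which binds insulin-like growth factors, fell by 1.79 (SE 0.35, adjusted p = 0.0059) and Kcnj2, an inward rectifier potassium channel, fell by 1.39 (SE 0.27, adjusted p = 0.00631) on the log2 scale. Epcam and Ptn, at 3.06, 5.69 and 35.0 CPM and 7.33, 6.13 and 42.7 CPM in the TN libraries, were highest in TN WT replicate 3, the library with epithelial transcripts. Their log2 fold changes were -2.69 and -2.15 with all libraries, and -0.95 (adjusted p = 0.127) and -0.68 (adjusted p = 0.0526) without that library. Both calls were also lost without cold WT replicate 1 (-2.88 and -2.12), 2 (-2.86 and -2.32) or 3 (-2.40 and -2.03). Inhbb, an activin subunit, was also highest there, at 27.9, 18.0 and 92.0 CPM at TN, with -1.76 and, without TN WT replicate 3, -0.76. It was called only without TN WT replicate 2, and the fits without TN WT replicate 1 or 1 of the cold libraries gave -2.02 to -1.64.

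**Figure D3:**
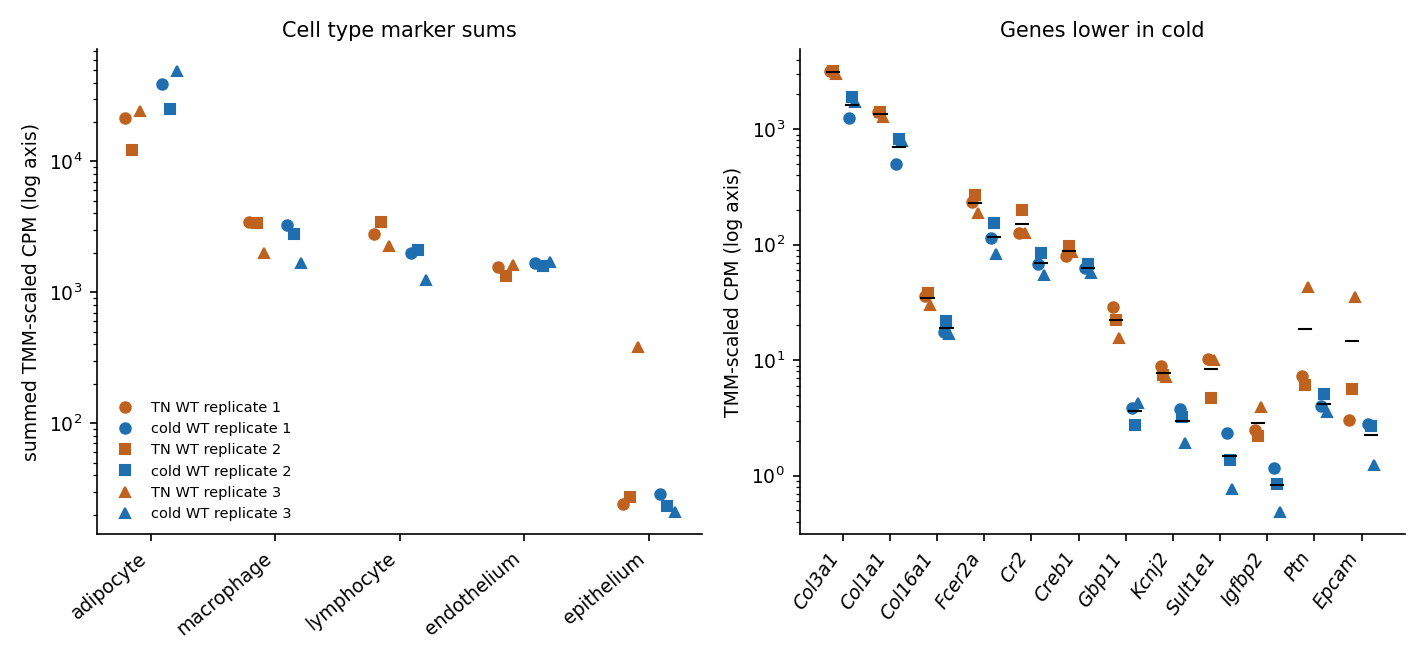
Left, summed CPM of 5 marker lists on a log axis, and right, CPM of 12 genes called lower in cold, in the same 6 libraries, with TN WT in orange, cold WT in blue, 1 symbol for each replicate number and, on the right, a black line at the group mean. TN WT replicate 3 stands at 379 CPM for epithelial markers against 28.6 CPM or less in the 5 other libraries, and it carries the highest TN value of Ptn and Epcam.

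Among genes with the largest rises, some lie outside the thermogenic list. Cyp2b10, a cytochrome P450 gene, was at 0.688, 0.103 and 0.853 CPM at TN and 88.2, 11.2 and 103 CPM in cold, a log2 fold change of 6.91 (SE 0.90, adjusted p = 9.70e-04), with cold WT replicate 2 far below the other cold libraries. Cyp2b10 has close relatives, among which reads can be split. Fam131c had 5 reads over the 3 TN libraries and 5.50, 7.90 and 3.70 CPM in cold. Cpn2, a subunit of carboxypeptidase N, and Kng2, a kininogen gene, both of the kinin system, had 10.5, 18.2 and 9.53 CPM and 6.94, 5.17 and 2.70 CPM in cold, and 0.102, 0.0685 and 0.512 CPM and 0.102, 0.0685 and 0.205 CPM at TN. Their log2 fold changes were 5.84 (SE 0.67, adjusted p = 6.06e-04) and 5.27 (SE 0.58, adjusted p = 5.30e-04). A530050N04Rik, a RIKEN cDNA locus, had 0 reads in the 3 TN libraries and 7.83, 7.73 and 2.09 CPM in cold. Against a limit of 3 reads in each TN library it was at least 52.6-fold higher in cold, on unscaled CPM. The strand setting of the counting is not given in the sources used here, and exons of Elovl3, Fabp3, Dio2 and Gyk (Gk in the annotation) overlap antisense genes in the annotation (Pitx3, Zcchc17, Gm26512 and Gm14764, in this order), so that reads of these pairs cannot be told apart.

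The same temperature contrast in the 6 libraries labelled HIF2a AKO shares no library with the WT contrast, although both come from 1 fit with a common estimate of the spread. There, 2381 genes (15.6%) were higher and 1757 (11.5%) lower in cold. Without replicate 1 of the cold libraries labelled HIF2a AKO these counts were 1299 and 314, and without replicate 1 of the TN libraries they were 1352 and 383. The lower count was also 895 without cold replicate 2 and 829 without TN replicate 3. Of these 6 libraries, TN replicate 2 and cold replicate 1 held skeletal muscle transcripts, with sums of 1868 and 1556 CPM over 16 markers against 57.7 to 84.8 CPM in the 4 others. Without TN replicate 2 the counts were 2406 and 1749. The part of these transcripts in the contrast was not tested. Of the genes that rose in WT, 1874 also rose in the libraries labelled HIF2a AKO, which is 78.4% of the WT list and 78.7% of the other. Of those that fell in WT, 559 also fell, 64.3% of the WT list and 31.8% of the other, and 0 genes were called in opposite directions. The sign was shared by 99.2% of the genes that rose and 99.4% of those that fell in WT, while 45.8% of all tested genes had a positive value in the libraries labelled HIF2a AKO. Across the 15306 tested genes, which are not independent replicates, the log2 fold changes of both contrasts had a Pearson r of 0.826 and a Spearman rho of 0.811. The test of the difference between the WT and the other response called 0 genes with edgeR, DESeq2 and limma voom, and 327 genes had an unadjusted p under 0.05 with edgeR, 380 with DESeq2 and 813 with limma voom.

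Medians of the lists were 2.69 in WT and 2.93 in the libraries labelled HIF2a AKO for thermogenic genes, 1.38 and 1.59 for complex I, 1.71 and 1.92 for the TCA cycle and -0.30 and -0.34 for the extracellular matrix. Ucp1 had 12.61 and 11.37, Dio2 8.38 and 7.24, Elovl3 9.83 and 10.67, Cox7a1 5.58 and 5.84, and Prkaca 1.20 and 1.35. Some genes that fell in WT were not called in the libraries labelled HIF2a AKO. Gbp11 had -2.62 in WT and -0.52 in the libraries labelled HIF2a AKO, Kcnj2 -1.39 and -0.24, and Sult1e1 -2.49 and -0.38. The differences between the responses were -2.10 (SE 0.56), -1.15 (SE 0.38) and -2.11 (SE 1.08), and none passed the adjusted test. These genes were named for their falls in WT. At TN, Gbp11 averaged 22.3 CPM in WT and 8.20 CPM in the libraries labelled HIF2a AKO, against 3.62 and 5.68 CPM in cold. Kcnj2 averaged 7.82 and 4.51 CPM at TN and 2.98 and 3.82 CPM in cold, in the same order. Igfbp2 fell in both, with -1.79 and -1.59.

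**Figure D4:**
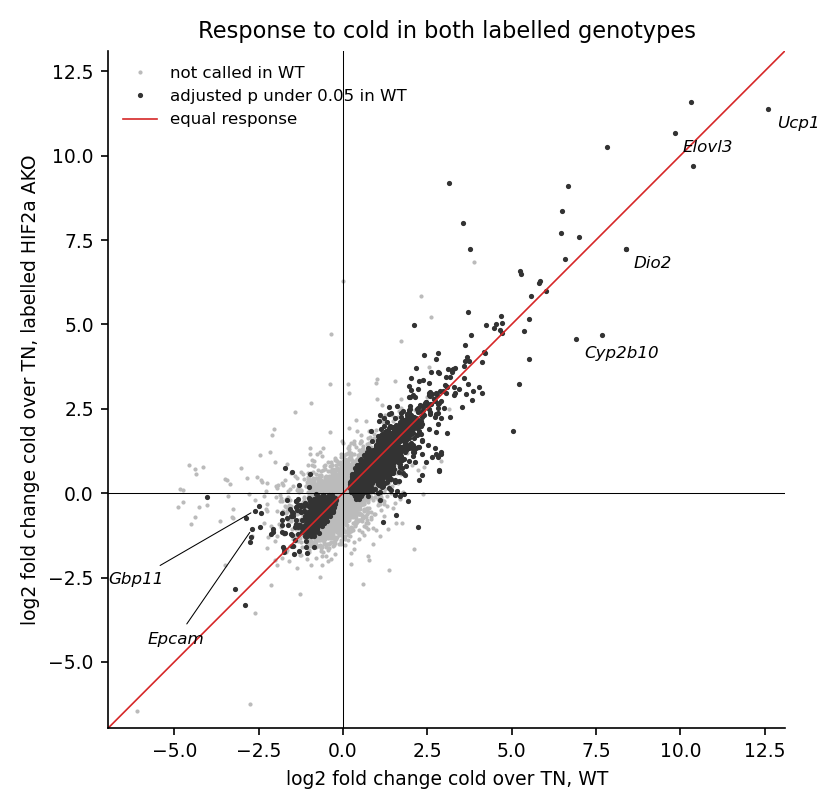
Log2 fold change of cold over TN for each of the 15306 tested genes, in WT on the x axis and in libraries labelled HIF2a AKO on the y axis, with genes called in WT in black and the line of equal response in red. Many of the rises lie near the line, as Ucp1 does at 12.61 and 11.37. Some of the largest falls lie off it, as Gbp11 does at -2.62 and -0.52. Epcam lies off it at -2.69 and -1.06, but its WT value was -0.95 without TN WT replicate 3, the library with epithelial transcripts. Cyp2b10 lies below the line at 6.91 and 4.56.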

How the data were processed

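RNA of whole iWAT was sequenced in 12 libraries of 4 groups with 3 libraries each, and grouping followed the labels. The submitters' processing notes name Trim Galore 0.4.4, STAR 2.6.1d, HTSeq 0.13.5, DESeq2 1.30.0 and the builds GRCm38 and mm10. The authors deposited raw HTSeq read counts per gene, which were used as deposited. The annotation used for counting and its strand setting are not given in the sources used here. Genes with near-identical copies can lose reads at this step, and Ndufs5 and Eno1 had at most 1 read in each WT library.

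Counts of 23420 genes were filtered with filterByExpr (minimum count 10, minimum total 15), which left 15306. They were scaled by TMM and tested with edgeR 4.0.16 in R 4.3.3 (quasi-likelihood test, 4 group means, all 12 libraries, Benjamini-Hochberg adjustment over all tested genes, limit 0.05). Log2 fold changes came from this fit at edgeR's default prior count, and standard errors were derived from the F statistic. A prior count of 2 entered only log2 CPM values, such as those used to correlate replicates. The test was also run on simulated counts with 200 changed genes. These counts did not carry the uneven cell content of the libraries, so that run cannot show how the test behaves under it. Nothing in the labels ties a replicate number to a litter, batch or day. No source states that libraries came from separate mice, so p-values measure only the spread between these samples.

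The comparison and the gene lists were chosen with earlier results of these data known. Lists were described by counts and medians, with no test of a list, and 11 listed symbols were matched through RefSeq synonyms. Named genes were the anchor genes marked on each list, up to 2 called genes with the smallest p in each list and direction, the 12 largest rises and 12 largest falls among called genes with groups that did not overlap and an average of 50 reads or more, and Epas1. Other genes named in the text were chosen after their values were seen, among them most of the genes reported as not called. Promoter sequences and gene positions came from RefSeq and the reference annotation of GRCm38. Alternatives were other scalings (relative log expression, upper quartile), filters and thresholds, DESeq2 1.42.0, limma voom (limma 3.58.1), the 6 WT libraries alone, a replicate block and leaving out each library. Some genes are not reported here.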

Additional observations from a re-analysis of the deposited data

How the results depend on the processing

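No gene called in WT changed direction under any alternative that tested it, and the fits on the 6 WT libraries and with CPM above 1 tested 14975 and 14177 genes. With 2389 higher and 870 lower genes as the reference, the lower count was 2509 under upper quartile scaling, 1815 with DESeq2 and 1607 with limma voom. With edgeR on the 6 WT libraries alone the counts were 1468 higher and 284 lower, at an adjusted p under 0.01 they were 1072 and 83, and with a log2 fold change of at least 1 they were 906 and 102. Without 1 WT library, the higher count ran from 1149 (without TN WT replicate 2) to 2669 (without TN WT replicate 3) and the lower count from 157 (without cold WT replicate 3) to 1090 (without cold WT replicate 2). The cause of these shifts was not tested. In the libraries labelled HIF2a AKO, with 2381 higher and 1757 lower genes, limma voom gave 2926 lower, and fits without 1 library gave 1299 to 2406 higher and 314 to 1749 lower. The count of genes whose response differed between genotypes was 0 in every fit. Of the values of 226 named genes under 15 alternatives, 3069 kept their side of the limit, 245 lost the call, 67 gained it and 0 reversed.

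Replicate numbers were not treated as pairs, since nothing in the labels ties them to a litter, batch or day. Deviations of same-numbered TN WT and cold WT libraries correlated at 0, 0.392 and 0.305 for numbers 1, 2 and 3. Libraries with different numbers were not compared in this way, so these values cannot decide whether the numbers mark pairs. With a replicate block the WT counts were 2018 higher and 543 lower. Depth limits genes with few reads at TN, such as Ucp1, Fabp3, Elovl3 and Bmp8b, whose fold changes depend on the prior count.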
